A study of Mus musculus with 4 samples.

Results

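The genes described here are 9 transcription factors that start or carry forward the making of neurons: Neurog1, Neurog2, Neurod1, Neurod4, Atoh1, Nhlh1, Nhlh2, Insm1 and Scrt1. They were chosen by name from the 24729 named genes of the array, as proneural and neuronal differentiation factors. Total RNA of whole mouse embryos (C57BL/6, with C57BL/6J eggs named in the study's methods) was measured on 4 one-colour Cy3 arrays of 1 slide, with 1 array in each of 4 groups: WT and Dyrk2-KO, each at embryonic days E8.5 and E10.5. Dyrk2 encodes a protein kinase, and its alleles were small deletions made with a CRISPR/Cas9 nickase. Which deletion line each RNA came from, and how many embryos, is not given in the sources used here. No value has a biological replicate, and precision is limited by the number of arrays.

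Neurons of the embryo arise from progenitors that pass through a relay of transcription factors. Neurog1, Neurog2 and Atoh1 are proneural proteins of the basic helix-loop-helix (bHLH) family, which pair with E proteins, bind E-box DNA and commit progenitors to neurogenesis. The bHLH factors Neurod1, Neurod4, Nhlh1 and Nhlh2 act later in the relay, in cells that are leaving the cell cycle. Insm1 and Scrt1 are zinc-finger repressors of the same differentiating cells. Neighbouring cells restrain the relay through Notch signalling and its Hes and Hey repressors, and Id proteins restrain it by capturing E proteins.

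Levels are log2 processed signals relative to the 75th percentile of the same array, so 0 means a probe at that percentile. A probe was counted as detected on an array where the scanner software marked it well above background. Each gene is described by its brightest probe, and 8 of the 9 genes had 1 probe, printed in 1 spot. The errors given are those of the scanner software's error model for the spot, and they hold no variation between embryos.

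The transcript of Dyrk2 itself did not tell the genotypes apart in the direction of a loss. At E8.5 its brightest probe read 0.06 on the WT array and 0.76 on the Dyrk2-KO array, 1.62-fold higher in the latter. The E10.5 readings were −0.31 and 0.34, again higher in Dyrk2-KO, by 1.57-fold. A second probe gave ratios of 1.02 and 1.21. A small deletion need not lower a transcript, so these values do not check the genotype labels. The ribosomal gene Rplp0 lay between 7.47 and 7.83 on the 4 arrays.

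Sex-linked transcripts differed between the arrays of E10.5, and red blood cell transcripts between the genotypes. At E10.5 the X-inactivation RNA Xist was at least 20.4-fold higher on the Dyrk2-KO array. The Y-linked Eif2s3y was lower there by 43.2-fold or more, Kdm5d by 39.0-fold or more, Ddx3y by 6.72-fold or more and Uty by 6.71-fold or more. A dimmer Kdm5d probe (ENSMUST00000055032) was detected on both E10.5 arrays and was 1.13-fold lower. At E8.5 neither array had detectable Xist and both had detectable Y-linked transcripts. All 11 of 11 erythroid genes were at least 1.5-fold higher on the Dyrk2-KO array at E8.5, with a median of 19.3-fold over values of which 2 are bounds, and 7 of 11 were so at E10.5, with a median of 2.15-fold. The summed signal of the erythroid list, in multiples of each array's 75th percentile, was 17.4 on WT E8.5, 384 on Dyrk2-KO E8.5, 1377 on WT E10.5 and 1603 on Dyrk2-KO E10.5, with the embryonic globin Hbb-bh1 as its brightest gene. The brightest gene of a list is that with the highest mean log2 level over the 4 arrays, and on the E10.5 arrays Hbb-y was brighter than Hbb-bh1. Each of the 11 was detected on at least 1 array. In a limma model of stage and genotype over the 4 arrays, genotype called 1 of the 11, Epor, at an adjusted p under 0.05, with 11 at an unadjusted p under 0.05. The part of sex and of erythroid RNA in the results on neuronal genes was not tested.

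Between E8.5 and E10.5 the neuronal differentiation factors went from mostly undetected to detected as a whole group, in both genotypes. On the E8.5 arrays 3 of the 9 genes were detected, namely Neurog2, Nhlh1 and Insm1, in WT and in Dyrk2-KO. On each E10.5 array 9 of 9 were detected. Of the 9 genes, 9 were at least 1.5-fold higher at E10.5 in WT, where 18.2% of all 16455 measured genes were that much higher and 17.1% that much lower. The count was also 9 of 9 in Dyrk2-KO, where 15.1% of 16210 genes were that much higher and 13.8% that much lower. For 6 of the 9 genes the E8.5 value was below background, so that their change with age is a lower bound. The bounds depend on how background is corrected. With normexp background correction 8 of 9 in WT and 7 of 9 in Dyrk2-KO were that much higher, without Neurog1 in WT and without Neurog1 and Neurod4 in Dyrk2-KO, and the WT difference of Neurod1 was 3.60 in place of 5.98 on the log2 scale.

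Among the proneural factors, Neurog2 was already present at E8.5. Its probe (NM_009718, chr3:127337805-127337864 of mm9) read −2.76 in WT and −1.90 in Dyrk2-KO at E8.5, then 0.46 and 0.19 at E10.5. Both E10.5 arrays were thus above both E8.5 arrays, by 9.30-fold in WT and 4.26-fold in Dyrk2-KO. Neurog1, which directs the formation of cranial and dorsal root sensory neurons, was the faint case. Its probe (NM_010896, chr13:56352641-56352700) read −5.34 and −6.86 at E8.5, both below background, and −3.27 and −3.50 at E10.5. The change was at least 2.93-fold in WT and at least 2.04-fold in Dyrk2-KO. Atoh1, the factor of the dorsal-most hindbrain and spinal cord neurons and of inner ear hair cells, was below background on both E8.5 arrays. Its probe (NM_007500, chr6:64681161-64681220) read −5.63 and −5.62 at E8.5, then 0.10 and −0.42 at E10.5. That is a difference of at least 30.3-fold in WT and at least 17.3-fold in Dyrk2-KO.

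The later bHLH factors gave some of the widest differences with age. Neurod1, which drives the survival and maturation of sensory and other neurons, was read by a probe at chr2:79292819-79292878 (NM_010894). It went from −5.83 and −6.26 at E8.5, below background, to 1.16 and 0.76 at E10.5. The difference was at least 63.1-fold in WT and at least 39.0-fold in Dyrk2-KO. Neurod4, a partner of the neurogenins in the relay, stayed dim. Its probe (NM_007501, chr10:129706046-129706105) read −6.74 and −6.33 at E8.5, then −2.44 and −2.77 at E10.5, at least 5.21-fold higher in WT and at least 3.38-fold in Dyrk2-KO. Nhlh1, a marker of cells that have just become neurons, was detected on all 4 arrays. Its probe (NM_010916, chr1:173982459-173982518) read −1.98 and −1.74 at E8.5, then 3.75 and 3.26 at E10.5, 53.1-fold higher in WT and 32.1-fold in Dyrk2-KO. Nhlh2, its close relative, was undetected at E8.5. Its probe (NM_178777, chr3:101818350-101818409) read −5.71 and −6.37 at E8.5, then 1.02 and 0.40 at E10.5, at least 57.3-fold higher in WT and at least 30.4-fold in Dyrk2-KO.

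Of the zinc-finger genes, Insm1, which promotes the exit of neural progenitors from the cell cycle, was detected on all 4 arrays. Its probe (NM_016889, chr2:146050603-146050662) read −1.77 and −2.03 at E8.5, then 3.18 and 2.75 at E10.5, 30.9-fold higher in WT and 27.3-fold in Dyrk2-KO. Scrt1, a Snail-family repressor found in postmitotic neurons, was below background on both E8.5 arrays. Its brighter probe (NM_130893, chr15:76346633-76346692) read −5.04 and −4.76 at E8.5, then 1.39 and 0.39 at E10.5, at least 74.1-fold higher in WT and at least 30.2-fold in Dyrk2-KO. A dimmer Scrt1 probe (NM_130893, chr15:76346943-76347002) gave at least 5.61-fold and at least 2.55-fold.

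In the limma model of stage and genotype, the 3 genes detected on all 4 arrays rose with age at an adjusted p under 0.05, as did 18.7% of all 16011 genes tested, while 22.8% of all fell. The fitted log2 rise was 5.37 (SE 0.18, adjusted p 3.43e-07) for Nhlh1, 4.86 (SE 0.13, adjusted p 2.23e-07) for Insm1 and 2.65 (SE 0.24, adjusted p 5.45e-05) for Neurog2. With 1 array per group, variation between embryos of a group was not measured, and these SEs and p-values lack it. The model had 1 residual degree of freedom and 8.07 prior ones, so they rest mostly on variance shared over the probes tested. The model tested probes detected on at least 2 arrays. The other 6 genes met that through the E10.5 arrays alone, so the filter all but fixed a higher reading at E10.5. Their fits rest on E8.5 readings below background. Readings on both E10.5 arrays were above both E8.5 readings for 9 of 9 genes, beside 31.9% of all genes tested. For the same 6 the filter again all but fixed this. In RNA of whole embryos, fewer cells of a type and less RNA per cell cannot be told apart.

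**Figure D1:**
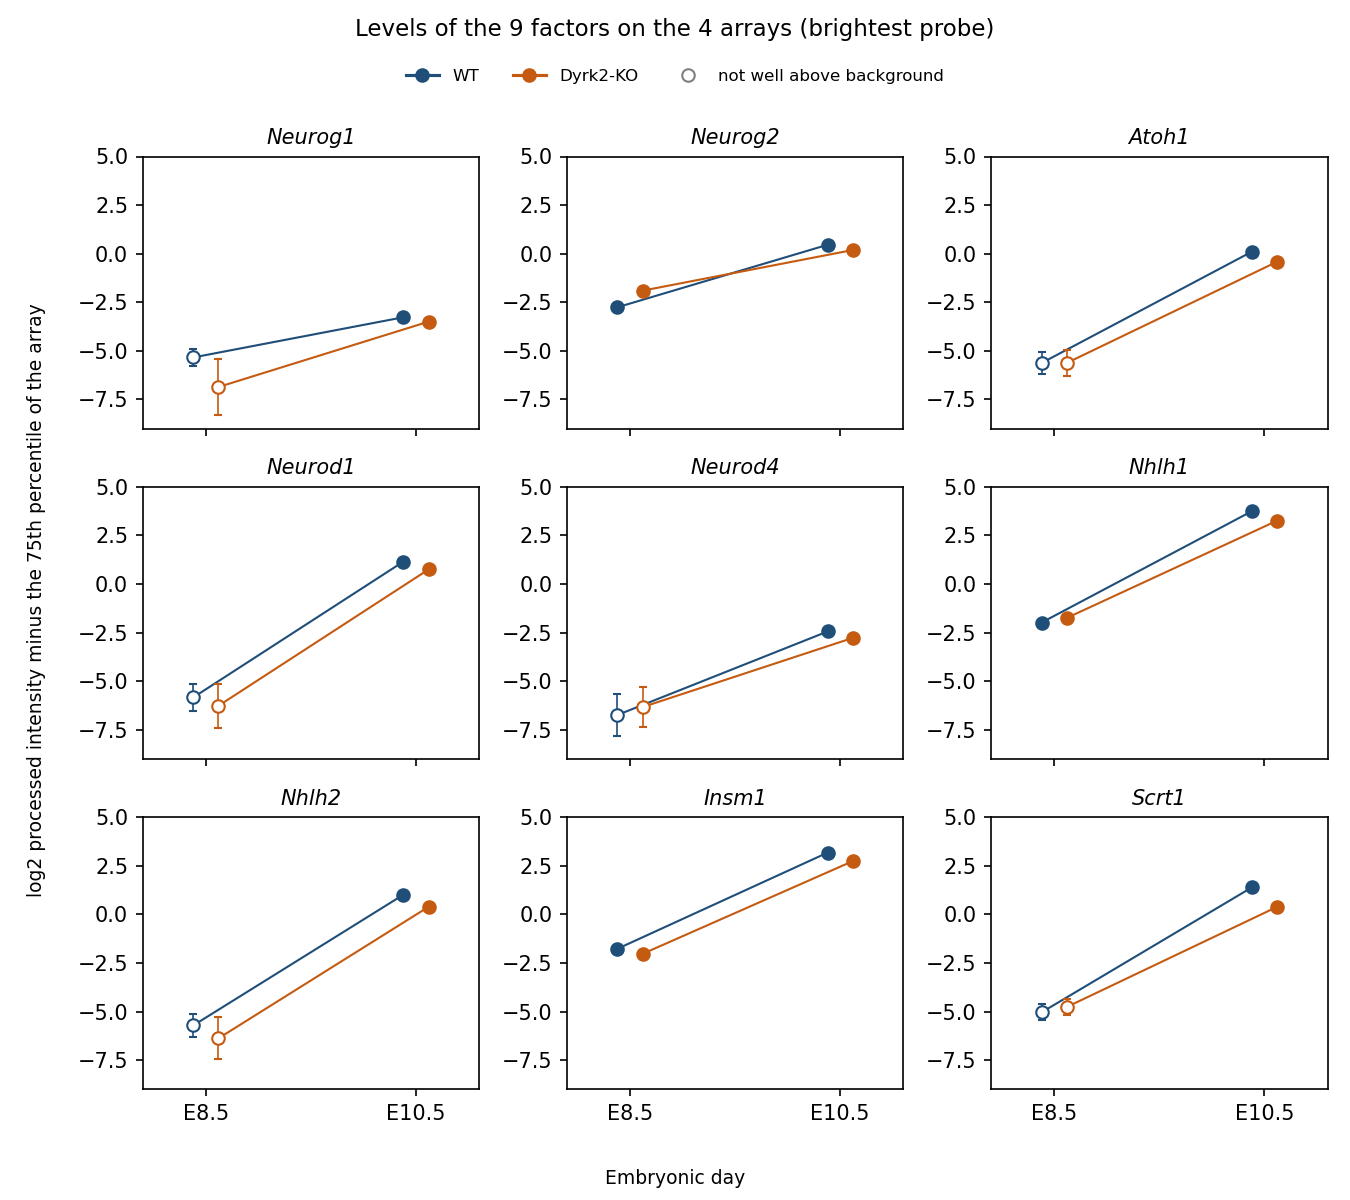
Level of the 9 genes on each of the 4 arrays, as log2 processed signal relative to the 75th percentile of the array, at E8.5 and E10.5 in WT (blue) and Dyrk2-KO (orange), 1 array per point; open symbols are values not well above background and bars are the scanner software's error. The WT value lies above the Dyrk2-KO value at E10.5 in 9 of 9 panels.

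At E10.5 the question was which transcripts differ in Dyrk2-KO embryos, and the 9 were not tested as a set. All 9 of 9 were lower by any amount on the Dyrk2-KO array than on the WT array, beside 53.8% of all 16122 measured genes. By at least 1.5-fold, 2 were lower, Scrt1 and Nhlh2, beside 3.19% of all genes, and 0 were higher, beside 1.98% of all genes. The median of the 9 was −0.44 on the log2 scale, or 1.35-fold lower, against a median of −0.02 for all genes. The middle range of all genes, from the 5th to the 95th percentile, ran from −0.48 to 0.36.

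The postmitotic repressor Scrt1 stood furthest out, 2.0-fold lower (log2 −0.9998). Of all measured genes, 0.651% were at or below that ratio, and the dimmer Scrt1 probe was 1.80-fold lower (log2 −0.84). Nhlh2 followed at 1.54-fold lower (log2 −0.62), with 2.75% of genes at or below it. Atoh1 was 1.43-fold lower (log2 −0.52) and Nhlh1 1.40-fold lower (log2 −0.49), both just beyond the 5th percentile of all genes and short of the 1.5-fold threshold. Insm1, the other zinc-finger gene, was 1.35-fold lower (log2 −0.44). The remaining bHLH factors lay closer to the bulk of the transcriptome. Neurod1 was 1.32-fold lower (log2 −0.40) and Neurod4 1.26-fold lower (log2 −0.33). The neurogenins showed the smallest differences of the 9, with Neurog2 1.21-fold lower (log2 −0.27) and Neurog1 1.17-fold lower (log2 −0.23).

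The scanner software put the error of these E10.5 ratios between 0.20 and 0.26 on the log2 scale. Of the 9 genes 8, all but Neurog1, were lower by more than that error, beside 15.4% of the 15468 genes detected on both E10.5 arrays. By more than 2 times the error 5 were lower, namely Scrt1, Nhlh2, Atoh1, Nhlh1 and Insm1, beside 4.67% of those genes. The order among neighbours such as Nhlh1 and Insm1 is within the error. With 1 array per genotype no test of the E10.5 difference exists. Each of the 9 stayed lower under every scaling tried, but Neurog1 came to about 0 with normexp (log2 −0.01) and −0.06 with spike-in scaling. Scaling by spike-in RNAs moved the median of all genes from −0.02 to 0.15, and no scaling moved it to −0.15.

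At E8.5 the 3 detected genes did not share a direction between the genotypes. Neurog2 was 1.81-fold higher on the Dyrk2-KO array (log2 0.86, error 0.22), a ratio that 98.5% of 15789 measured genes did not exceed. It was the 1 gene of the 3 at least 1.5-fold higher, beside 3.92% of all genes, and 0 of the 3 were that much lower, beside 4.08% of all genes. Nhlh1 was 1.18-fold higher (log2 0.24), and Insm1 was 1.20-fold lower (log2 −0.26). Both of these lay inside the middle range of all genes at E8.5, from −0.53 to 0.52, and within 2 times the scanner error. The other 6 genes were below background on both arrays and have no ratio.

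The E8.5 ratios depended on how the arrays were scaled. Spike-in scaling moved the median of all genes at E8.5 from −0.03 to −0.57, and no scaling moved it to −0.28. Neurog2 was still higher on the Dyrk2-KO array, at 0.31 and 0.60 on the log2 scale, whereas Nhlh1 turned from 0.24 to −0.31 and −0.02. With spike-in scaling or normexp Neurog2 fell short of 1.5-fold. Counts past 1.5-fold at E8.5 are given below for scaling by the 75th percentile, and some differ under the other scalings and normexp. Relative to the shifted medians, Neurog2 and Nhlh1 lay above the median of all genes under each scaling.

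**Figure D2:**
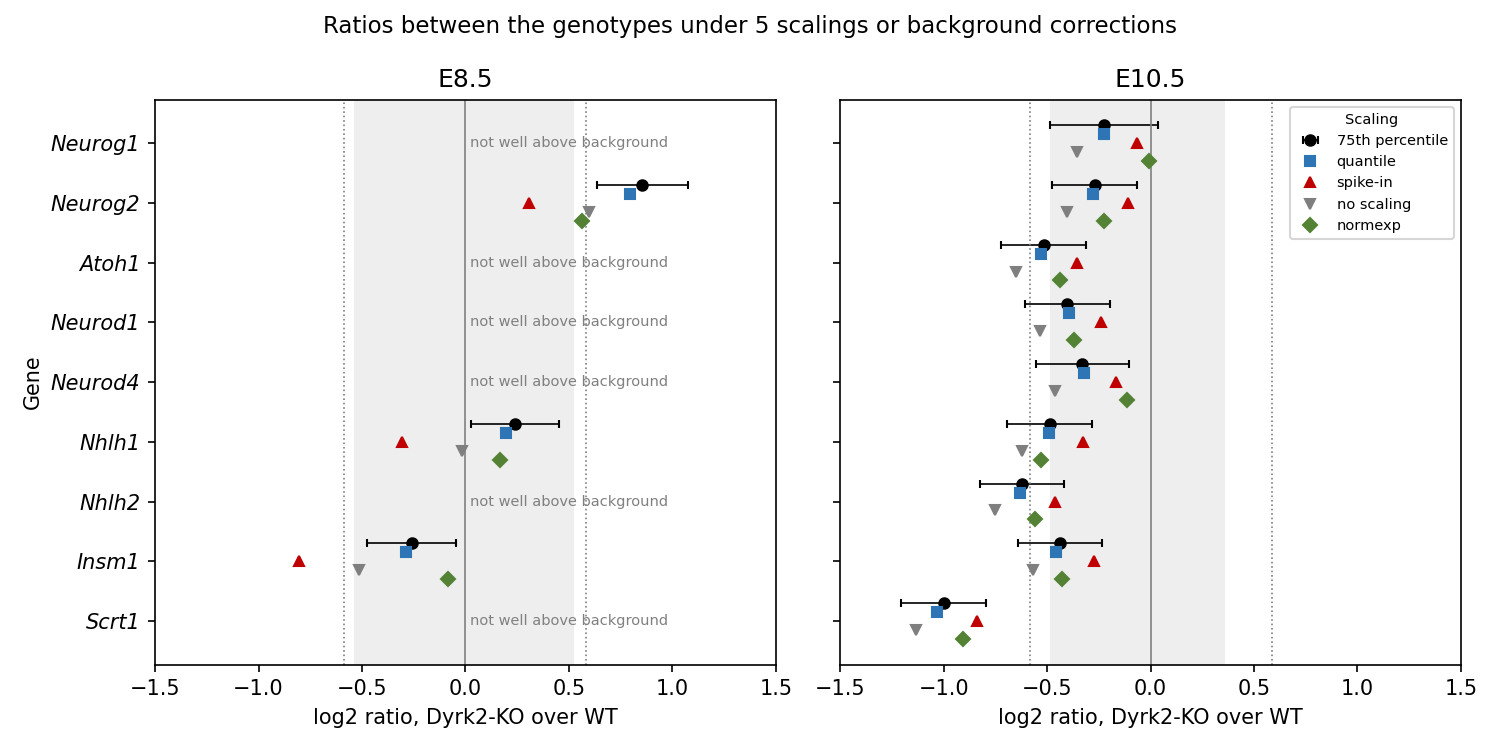
Log2 ratio of Dyrk2-KO over WT for each gene at E8.5 and E10.5 under 5 scalings, with the scanner software's error as bars on the 75th-percentile values, the 1.5-fold thresholds as dotted lines and the 5th to 95th percentile of all genes as a grey band. At E10.5 the 9 genes lie below 0 under each scaling shown, and at E8.5 Neurog2 lies above 0 under each while Nhlh1 falls below 0 with spike-in scaling or none.

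Averaged over both stages in the limma model, genotype called 0 of the 9 genes at an adjusted p under 0.05, beside 0.0187% of all genes, or 3 of 16011. At an unadjusted p under 0.05 there were 2, beside 875 of all genes. These were Insm1, with a fitted log2 difference of −0.35 (p 0.0297, adjusted p 0.969), and Nhlh2, whose fit rests in part on E8.5 readings below background. For Neurog2, whose ratio had opposite directions at the stages, the fitted difference was 0.29 (p 0.254). The model had 1 residual degree of freedom, which is the change of the genotype ratio between the stages. The comparisons of genotype and of stage share arrays, and so are given side by side.

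The other transcription factors of the relay, from the Olig genes to the Ebf and Myt families, were compared as a list. Of 18 listed, Neurod2 and Neurod6, which belong to later forebrain neurons, were never detected. The other 16 rose with age in limma, but 7 of them were detected at E10.5 alone, where the filter all but fixed the direction, so the count is a description. Scrt2 was 19.8-fold and Ebf3 6.54-fold higher as the mean of both genotypes. At E10.5 all 16 were lower on the Dyrk2-KO array, 4 of them by at least 1.5-fold, with a median of −0.38 that stayed below 0 under each scaling. With spike-in scaling 14 of 16 stayed lower and 2 passed 1.5-fold, with normexp 15 and 3, and without scaling 16 and 6. The 4 were Scrt2, the paralogue of Scrt1, at 1.85-fold lower, the zinc-finger gene Myt1 at 1.68-fold, Insm2, the paralogue of Insm1, at 1.58-fold and St18, a relative of Myt1, at 1.57-fold. In the limma model genotype called 0 of the 16, with 1, Myt1, at an unadjusted p under 0.05. The Myt1 fit rests in part on a Dyrk2-KO E8.5 reading below background. The summed signal of the list was 5.49 on WT E8.5, 6.19 on Dyrk2-KO E8.5, 34.7 on WT E10.5 and 26.3 on Dyrk2-KO E10.5, with Hes6 as the brightest gene in the mean of the 4 arrays and Ebf3 brighter at E10.5.

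At E8.5 the direction of this list depended on the scaling. Of 9 factors measured, 8 were higher on the Dyrk2-KO array, 3 of them by at least 1.5-fold. With spike-in scaling 6 of the 9 were lower and without scaling 4, and the 3 became 0 with either and with normexp. Olig2, a factor of motor neuron progenitors, was 1.75-fold higher and Scrt2 1.66-fold. The median was 0.28, then 0.02 without scaling and −0.27 with spike-in scaling, each above the median of all genes under that scaling.

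Genes of newly formed neurons carried the widest shift among the neural lists at E10.5. These 15 include genes of neurofilaments, microtubule proteins, RNA-binding proteins and Onecut transcription factors of newly formed neurons. On each E8.5 array 14 of the 15 were already detected. All 15 rose with age in limma, of which Dcx was detected at E10.5 alone and had to differ, with Elavl3 higher by 36.7-fold, the neurofilament gene Nefm by 14.2-fold and the Cut-domain factor Onecut1 by 9.13-fold as the mean of both genotypes. At E10.5 all 15 were lower on the Dyrk2-KO array under each scaling, with a median of 1.49-fold (log2 −0.57). By at least 1.5-fold 6 were lower, from 2 with spike-in scaling to 11 with none. The neurofilament gene Nefl was 1.83-fold lower, the stathmin Stmn3 1.82-fold and the intermediate filament gene Ina 1.60-fold. At E8.5 10 of 14 were lower in Dyrk2-KO and the median was −0.19, with Nefm 2.21-fold lower. Genotype in limma called 0 of these 15, and 8 had an unadjusted p under 0.05. The summed signal of the list was 41.0 on WT E8.5, 35.1 on Dyrk2-KO E8.5, 176 on WT E10.5 and 118 on Dyrk2-KO E10.5, with Stmn2 as the brightest gene. The 9 factors summed to 0.82, 0.92, 32.2 and 22.7 in the same order, with Nhlh1 as the brightest.

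Progenitor genes mark the dividing cells from which neurons come. Of 9 neural progenitor genes, including the SoxB1 factors Sox2 and Sox3, 0 were 1.5-fold different at E10.5, and their median of −0.11 turned to 0.05 with spike-in scaling. Fabp7 was 1.48-fold lower (log2 −0.56), and 1 of the 9 passed 1.5-fold with quantile normalization, the deposited table or no scaling. With age 4 of the 9 progenitor genes rose in limma. These were the brain lipid-binding protein gene Fabp7 at 13.6-fold, the filament gene Nes at 4.41-fold, the RNA-binding Msi1 and the factor Rfx4 (log2 0.80). The patterning factor Pax6, Sox3 and Sox21 did not pass the test, with log2 differences of −0.24, −0.23 and −0.19. At E8.5 Fabp7 was the 1 gene past the threshold, at 1.62-fold lower in Dyrk2-KO. The summed signal of the list was 44.5, 44.5, 78.3 and 65.0 in the order of WT and Dyrk2-KO at E8.5 and then at E10.5. Genotype in limma called 0 of these 9 progenitor genes, with 1, Fabp7, at an unadjusted p under 0.05.

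The E proteins that pair with the bHLH factors, and the Id, Hes, Hey and Rest genes that oppose them, were detected on all arrays. None of these 14 differed by 1.5-fold between genotypes at either stage, although at E8.5 9 were that much lower with spike-in scaling and 4 with none, when the median of all genes had moved too, and 1 was that much higher with quantile normalization. At E10.5 1 was that much lower without scaling. Their medians were −0.06 at E8.5 and −0.12 at E10.5, the latter turning to 0.04 with spike-in scaling. With age 6 of the 14 rose and 3 fell in limma. The Notch target Heyl rose 28.9-fold, the inhibitor Id4 5.21-fold and the Notch effector Hes5 4.30-fold, as the mean of both genotypes, while Hes3, a repressor of early neuroepithelium, fell 8.74-fold. Hes1 and Id1 fell by 0.46 and 0.41 on the log2 scale. Genotype in limma called 0 of the 14, with 1, Id2, at an unadjusted p under 0.05.

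Notch ligands, receptors and modulators had 0 of 14 past 1.5-fold at E10.5 (1 without scaling) and a median of −0.13, which turned to 0.03 with spike-in scaling. At E8.5 the receptor gene Notch1 was the 1 gene past the threshold, at 1.71-fold lower in Dyrk2-KO, and not with normexp. The E8.5 median of 0.14 turned negative with spike-in scaling (−0.41) and with none (−0.12). With age 4 rose and 1 fell in limma. The Fringe gene Mfng rose 3.45-fold and the ligand gene Jag2 2.09-fold as the mean of both genotypes, Notch3 and Numbl rose too, and the ligand gene Jag1 fell 1.59-fold. The ligands Dll4 and Dll1 and the DNA-binding partner Rbpj did not pass the test, with log2 differences of 0.73, −0.26 and −0.06. Genotype in limma called 0 of the 14, and 0 had an unadjusted p under 0.05.

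Sensory placodes and ganglia depend on Neurog1 and Neurod1, and their genes were measured as a list of 14, of which Tlx3 was never detected. At E10.5 10 of 13 were lower on the Dyrk2-KO array, 1 of them by at least 1.5-fold, with a median of −0.16 that turned to 0.006 with spike-in scaling. That gene was Prph, which encodes the filament protein peripherin of peripheral neurons, at 2.14-fold lower, and short of 1.5-fold with normexp. At E8.5 8 of 12 were lower, with the sensory neuron factor Pou4f1 2.64-fold lower as the 1 past the threshold. With age 6 rose and 1 fell in limma, with Prph at 2.11-fold and Isl1 at 2.03-fold higher, while Eya1 fell by 0.45 on the log2 scale. Genotype called 0 of 13 in limma, with 3, Prph, Isl1 and Eya2, at an unadjusted p under 0.05. The list summed to 103, 120, 96.9 and 91.5 in the order of WT and Dyrk2-KO at E8.5 and then at E10.5, with Eya1 as the brightest gene.

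Neural crest genes, whose cells form the glia of those ganglia and some of their neurons, had a median of −0.30 at E10.5. There 6 of 6 were lower on the Dyrk2-KO array, 5 of 6 with spike-in scaling. At E8.5 5 of 6 were lower and the glial and crest factor Sox10 was 1.64-fold higher, and less than 1.5-fold with spike-in scaling or none. With age the crest factors Foxd3 and Tfap2a fell in limma, by 2.14-fold and 1.62-fold as the mean of both genotypes. The list summed to 11.9, 12.4, 9.83 and 8.29 in the same order, with Tfap2a as the brightest gene and none never detected. Genotype in limma called 0 of 6, and 0 had an unadjusted p under 0.05.

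**Figure D3:**
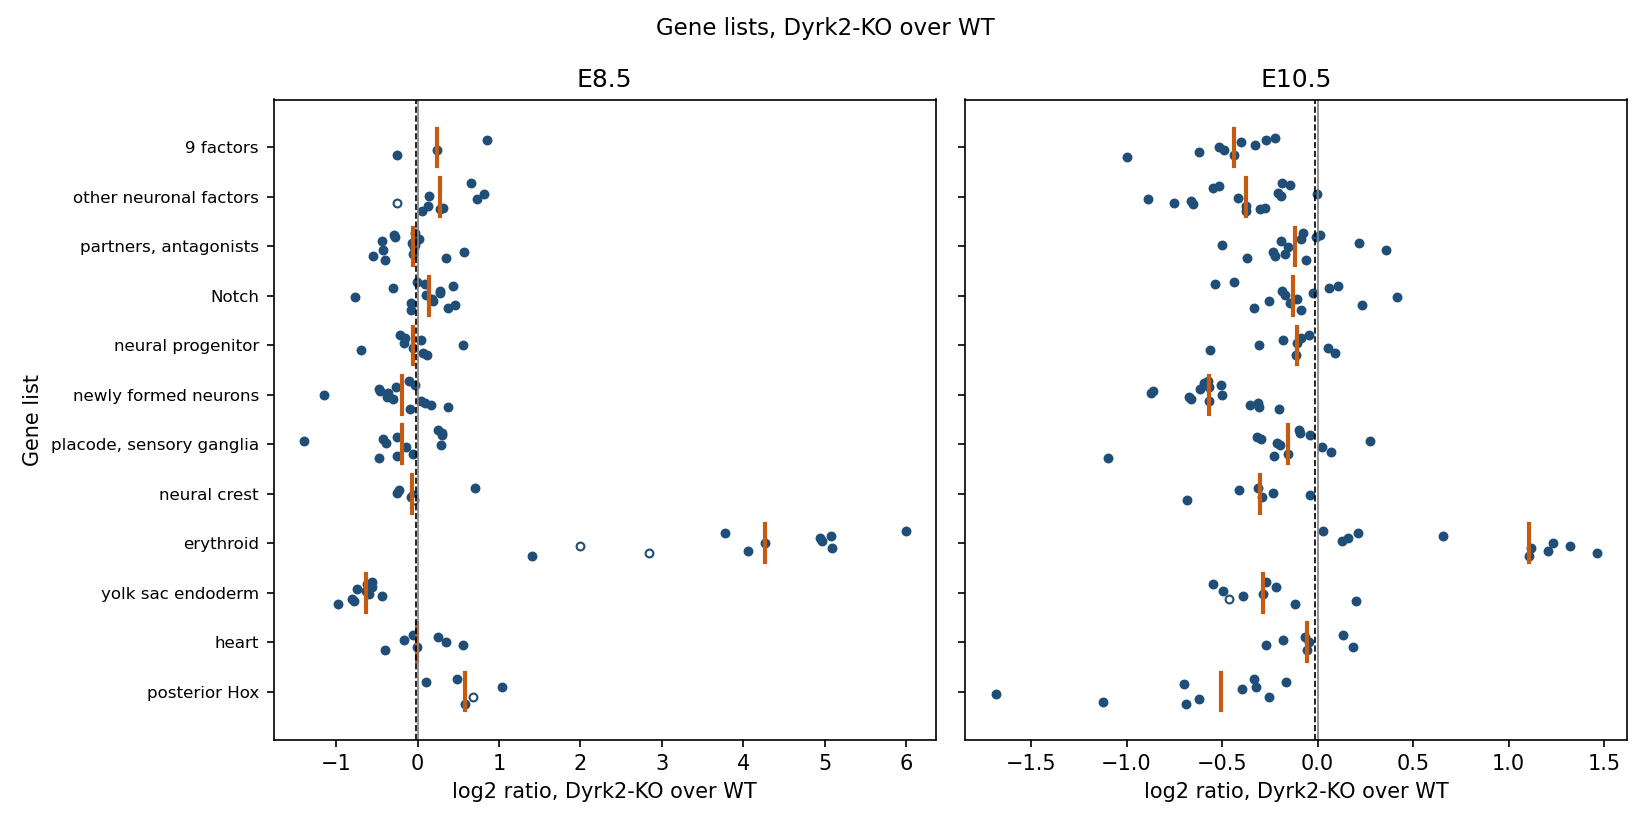
Log2 ratio of Dyrk2-KO over WT for the genes of 12 lists at E8.5 and at E10.5, 1 point per gene, open where the ratio is a bound, with the list median in orange and the median of all genes as a dashed line. At E10.5 the 9 differentiation factors and the 15 genes of newly formed neurons lie below 0, which held under each scaling, whereas the progenitor, Notch and bHLH partner medians of −0.11, −0.13 and −0.12 turn positive with spike-in scaling.

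The genes whose pattern over the 4 arrays lay nearest to the mean of the 9 were Gpr17, Glra1, Foxn4, Tyrobp and Elavl3. The mean of the 9, centred over the arrays, was −2.41 on WT E8.5, −2.54 on Dyrk2-KO E8.5, 2.71 on WT E10.5 and 2.24 on Dyrk2-KO E10.5. The root mean square log2 distance from it, among 15468 genes, was 0.04 for the receptor gene Gpr17, 0.05 for the glycine receptor gene Glra1 and 0.07 for the retinal and spinal interneuron factor Foxn4. It was 0.12 for the myeloid adaptor gene Tyrobp and 0.13 for the neuronal RNA-binding protein gene Elavl3. Gpr17, Foxn4 and Tyrobp were detected on 2 arrays, and Glra1 and Elavl3 on 4. At E8.5 Gpr17, Foxn4 and Tyrobp, and 6 of the 9 factors in the mean, were below background, so the distances and their order rest in part on undetected values. This likeness is over 4 arrays and says nothing of shared control.

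Several of these factors also work outside the nervous system or in tissues that a whole embryo contains, and their markers were measured alongside. Neurod1 and Insm1 serve in the endocrine pancreas. The hormone genes Ins1 and Iapp were never detected. At E10.5 0 of 2 measured pancreatic genes differed by 1.5-fold, and at E8.5 1 of 3, the glucagon gene Gcg, was that much higher on the Dyrk2-KO array, and 0 were higher by that much with spike-in scaling, no scaling or normexp. Gcg was the brightest of the list, with a summed signal of 0.23, 0.27, 0.23 and 0.24 on WT and Dyrk2-KO at E8.5 and then at E10.5. In limma 0 of 2 were called with age or with genotype, and 0 had an unadjusted p under 0.05 for genotype.

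Markers of embryo age and of extra-embryonic tissue were measured too, and genotype in limma called 0 of the posterior Hox, paraxial mesoderm, yolk sac, trophoblast and heart genes. At an unadjusted p under 0.05 there were 7 of 10 yolk sac genes, 2 of 5 of the paraxial mesoderm list, T and Tbx6, and 0 in the other 3 lists. Posterior Hox genes switch on in sequence as the trunk extends. The Dyrk2-KO array held more of 5 of 5 measured at E8.5, of Hoxc10 and Hoxd10 by at least 1.5-fold, although 2 of the 5 were lower with spike-in scaling, and the 2 past 1.5-fold became 0 with it or normexp and 1 with no scaling. At E10.5 10 of 10 were lower under each scaling, with a median of −0.51, and Hoxa13, Hoxc13, Hoxd11, Hoxd12 and Hoxd13 were lower by at least 1.5-fold, 5 genes that became 2 with spike-in scaling and 1 with normexp. Their summed signal was 1.15, 1.58, 12 and 9.31 in the same order of arrays, Hoxa10 was the brightest and Hoxc12 was never detected. Of 5 tail bud and paraxial mesoderm genes, 2 of 4 measured at E10.5 were at least 1.5-fold lower on the Dyrk2-KO array, T by 2.81-fold and Tbx6 by 3.16-fold, and 0 of 5 differed by that much at E8.5. That list summed to 23.2, 26.1, 10.6 and 9.94, with Meox1 as its brightest gene and none never detected. The part of embryo age in the ratios of the 9 genes was not tested.

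Yolk sac endoderm genes were 1.5-fold lower on the Dyrk2-KO array for 7 of 10 at E8.5 (5 to 10 under the other scalings) and for 0 of 9 at E10.5 (3 without scaling), with medians of −0.63 and −0.29. They summed to 55.2, 35.8, 25.3 and 20.7, with Afp as the brightest gene in the mean of the 4 arrays, Rbp4 brighter at E8.5, and none never detected. Of the trophoblast and decidua genes, 2 of 4, Prl8a2 and Prl3d1, were at least 1.5-fold higher on the Dyrk2-KO array and 1, Gcm1, that much lower at E8.5, and 0 of 2 differed at E10.5. These summed to 15.2, 10.1, 16.1 and 19.0, with Gcm1 as the brightest gene and Tpbpa never detected. Most of each sum is the signal of Gcm1, which read 3.83, 3.16, 3.97 and 4.22 on the log2 scale. The sum therefore does not follow Prl8a2 and Prl3d1, which were 2.72-fold and at least 6.62-fold higher on the Dyrk2-KO array at E8.5. Heart genes differed by 1.5-fold in 0 of 7 at either stage, and summed to 213, 222, 116 and 118 with Myh6 as the brightest gene. The part of these tissues in the ratios of the 9 genes was not tested.

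The promoters of the 9 genes were read for the E-box that bHLH factors bind, since members of the relay act on each other. RefSeq windows of GRCm38.p6, 250 bases upstream of the start of transcription, were matched for 7 of the 9 genes. Insm1 and Scrt1 had no entry. The E-box letters CANNTG occurred on either strand in the windows of 3 of the 7, Neurod1, Nhlh1 and Nhlh2, and in 66.2% of all 32841 promoters. The form CAGATG, which is also a CANNTG, occurred in 2 of the 7, Nhlh1 and Nhlh2, and in 14.4% of all. The form CAGCTG, also a CANNTG, occurred in 0 of the 7 and in 13% of all. The letters CACNAG were found in 2, Neurod4 and Nhlh2, and in 36.7% of all, CCAAT in 4, Neurog1, Atoh1, Nhlh1 and Nhlh2, and in 33.9% of all, and TATAAA in 0 and in 12.4% of all. A match of letters is a description of the window, and a missing match says only that the letters are not in it.

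Printed are 3 of these windows, each 5′ to 3′ on the strand of its gene, with CANNTG in capitals: Neurod1, detected only at E10.5, on the minus strand at chr2:79456637-79456886, Nhlh2, the bHLH gene of the 9 with the lowest ratio at E10.5, on the plus strand at chr3:102009895-102010144, and Neurog2, already on at E8.5, on the plus strand at chr3:127632886-127633135. The GC content was 67.6%, 42% and 58%.
Neurod1: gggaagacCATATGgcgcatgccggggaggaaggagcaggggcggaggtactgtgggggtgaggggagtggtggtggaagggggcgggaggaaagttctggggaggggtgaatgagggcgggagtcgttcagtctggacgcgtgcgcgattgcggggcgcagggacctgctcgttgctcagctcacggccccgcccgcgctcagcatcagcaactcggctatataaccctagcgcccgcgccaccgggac
Nhlh2: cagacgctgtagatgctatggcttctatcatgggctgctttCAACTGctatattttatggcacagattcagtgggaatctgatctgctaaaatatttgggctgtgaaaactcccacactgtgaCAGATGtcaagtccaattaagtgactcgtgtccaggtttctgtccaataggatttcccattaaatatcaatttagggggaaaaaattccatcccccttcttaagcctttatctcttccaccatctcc
Neurog2: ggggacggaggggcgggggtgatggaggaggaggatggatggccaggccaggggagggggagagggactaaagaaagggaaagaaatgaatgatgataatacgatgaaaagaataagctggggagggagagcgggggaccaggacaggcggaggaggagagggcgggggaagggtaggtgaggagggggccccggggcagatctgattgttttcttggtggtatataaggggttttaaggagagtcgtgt
The Neurod1 window held 1 E-box, CATATG. The Nhlh2 window held 2, CAACTG and CAGATG, and the Neurog2 window held 0.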

How the data were processed

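Single-colour intensity values came from 4 scanner files, made by the authors with Agilent Feature Extraction, which is version 10.7.1.1 per the file headers and 9.5.1.1 in the processing notes. Each array held 62976 spots, of which 59305 were not controls and gave 56605 probes. The processed signal is background-subtracted and corrected for position, and is not scaled between arrays. The deposited table holds linear intensity values with 1 distribution in all arrays, by a method the authors do not state, and it was used as an alternative after a log2 transform.

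The processed signals were log2 transformed, with replicate spots averaged once outliers were dropped, and reduced by the array's 75th percentile. Between 30226 and 31943 probes per array were well above background, and 0 were saturated. The median SD between spots of a probe was 0.07 to 0.12 on the log2 scale. A gene was a symbol of the RefSeq gene table, given by its brightest probe, with probe positions on mm9 as the array annotation lists them. The exon under a probe was not looked up.

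With 1 array per group, a gene was called at a 1.5-fold difference with no test. A probe detected on 1 array of a pair gave a bound, against the larger of its own value and the lowest detected value of the array lacking it. limma 3.58.1 in R 4.3.3 fitted stage and genotype with an intensity trend, with Benjamini-Hochberg adjustment over the 32289 probes that 2 or more arrays detected, and a gene was called at an adjusted p under 0.05. Tables were made with the data.table package (1.17.8), Python 3.11.15, pandas 2.3.3 and numpy 2.4.6, and figures with matplotlib 3.10.9.

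The lists were other neuronal transcription factors, bHLH partners and antagonists, Notch genes, neural progenitors, newly formed neurons, sensory ganglia, neural crest, endocrine pancreas, erythroid cells, yolk sac endoderm, trophoblast and decidua, heart, paraxial mesoderm and posterior Hox genes. From the neural lists, up to 3 detected genes past 1.5-fold in each direction were named per genotype comparison. With age the 3 widest in each direction were named among genes detected on all 4 arrays, so genes detected on fewer arrays can have wider differences. From the others the gene with the highest mean log2 level over the 4 arrays was named. Some genes that the rule picks are left out. The nearest in pattern were the 5 genes with the smallest root mean square difference from the mean of the 9, among genes detected on both E10.5 arrays. The 9 genes and the lists were chosen with earlier results of these data known. Genes named to spell out a count of 5 or fewer, those never detected and those brighter at 1 stage than a list's brightest gene were chosen after their values were seen.

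The alternatives were quantile normalization, spike-in scaling, no scaling, normexp background correction with an offset of 50, the deposited table, stricter and absent detection filters, the mean over probes, a 2-fold threshold, 1.5-fold with a Z-score beyond 2, and limma without the intensity trend.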

Additional observations from a re-analysis of the deposited data

Results flagged for a closer look

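The ratio of Dyrk2-KO over WT had opposite directions at the 2 stages for Neurog2 and Nhlh1, with 1 array per group. Neurog2 had a log2 ratio of 0.86 at E8.5 and of −0.27 at E10.5, a difference of −1.13, and it stayed opposite under each scaling tried. The values of Nhlh1 were 0.24 for E8.5 and −0.49 for E10.5, a difference of −0.73, and the E8.5 value fell below 0 with spike-in scaling (−0.31) or none (−0.02). The difference between the stages was not tested for either gene. Insm1, the other factor detected at both stages, was lower at both, at −0.26 and −0.44.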

How the results depend on the processing

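At E10.5 the 9 genes were lower on the Dyrk2-KO array under every alternative tried, and their median stayed between −0.57 and −0.27. The 2 genes at least 1.5-fold lower became 0 at 2-fold, 1 (Scrt1) with the Z-score threshold, spike-in scaling or normexp, and 4 (Scrt1, Nhlh2, Atoh1, Nhlh1) without scaling. Of all genes 1.63% were at least 1.5-fold lower with spike-in scaling, 0.695% with normexp and 5.53% without scaling. At E8.5 the 1 gene higher, Neurog2, became 0 at 2-fold or with normexp. With spike-in scaling 1 was instead lower (Insm1), beside 48% of all genes. With no detection filter 3 were called, Neurog2 higher and Neurog1 and Nhlh2 lower, the latter pair below background. Without that filter 8.06% of all genes were at least 1.5-fold higher and 7.85% that much lower. The E8.5 median of 0.24 became −0.31 with spike-in scaling, −0.017 without scaling and 0.0045 with no filter. For the scalings the cause was not tested. The 9 genes at least 1.5-fold higher with age in WT became 8 with normexp and 8 with the Z-score threshold, and the 9 in Dyrk2-KO became 7 and 8. With normexp 12% of all genes were that much higher with age in WT and 9.19% in Dyrk2-KO. Normexp lowered the differences with age, in WT from 5.98 to 3.60 for Neurod1, from 6.21 to 3.86 for Scrt1 and from 1.55 to 0.45 for Neurog1, on the log2 scale. Requiring detection on both arrays left 3 of 3 measured genes higher with age in WT and 3 of 3 in Dyrk2-KO, and detection on all 4 left 3 of 3 rising in limma, because fewer genes were tested. Genotype in limma called 0 of the 9, and 1 (Nhlh2, below background at E8.5) without scaling, beside 2.71% of all genes under that setting. Without scaling the smallest adjusted p of the 9 was 0.0293, in a range of 0.0293 to 1 over the alternatives. Ratios of the genes over the alternatives moved by less than the scanner error in 72 of 72 values at E10.5, 17 of 24 at E8.5, 46 of 66 with age in WT and 40 of 66 with age in Dyrk2-KO, and none that was called turned direction. Some of these values could not move. For the genotype ratios the detection filters repeat the main value, as does the mean over probes for the 8 genes with 1 probe. The deposited table gave nearly the values of quantile normalization. These counts therefore overstate how stable the genotype ratios are. Using own values in place of bounds was an alternative chosen after seeing the data. It could only widen the rises with age, so it could not lower the counts of 9 and 9. No genotype ratio of the 9 genes was a bound, so the counts of 1 and 2 could not change either. At E8.5 6 of the 9 genes were below background.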
